A study of Mus musculus with 12 samples.

Results

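A set of 6 genes of the immediate early response (Fos, Jun, Junb, Egr1, Atf3 and Ier2) and a set of 4 genes of the heat shock response (Hspa1a, Hspa1b, Hspa8 and Dnajb1) were followed library by library in mouse liver. They were taken by symbol, all 10 were found among the 24527 genes of the count table, and all 10 were among the 13204 genes that passed a filter on low counts. The clearest pattern was between the sexes. Hspa1a and Hspa1b, which encode the inducible HSP70 chaperone, had 5.34-fold and 6.17-fold higher levels in males when both modes of conception were averaged, and Egr1, a zinc finger transcription factor, had 5.81-fold lower levels in males. This average was added after the data were seen. Within a single mode edgeR called only Hspa1b in natural animals (adjusted p = 0.0355), beside 1.77% of all genes. This call was lost when any of 6 libraries was left out. None of the 10 was called between the sexes after IVF in edgeR, beside 2.19% of all genes. None of the 10 genes was called between mice conceived by in vitro fertilization (IVF) and naturally conceived mice in either sex. Of all 13204 genes, 0 were called in females and 1 in males, so this is not particular to the 10. Single animals of one group differed by up to 8.36-fold for Fos and 7.78-fold for Egr1.

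Messenger RNA was sequenced from the livers of 12 mice aged 39 weeks, 3 in each of 4 groups: natural females, IVF females, natural males and IVF males. All came from CF1 females crossed with B6SJL males, by mating in the natural groups and with fertilization outside the body in the IVF groups, and no transgene or drug was named in the labels. Per the labels' protocols the mice were killed with CO2 and cervical dislocation and the livers were snap frozen. The hour of collection and the interval between death and freezing are not given in the sources used here. Total counts per library ranged from 6826534 to 27832271, and the 2 smallest libraries, IVF female replicate 1 and natural female replicate 2, are named wherever a value rests on them. Each library has its own number in its title and is taken as 1 animal, and the titles of IVF female replicate 1 and IVF male replicate 2 share the first part of that number, whose meaning is not stated. Levels below are CPM, the reads of a gene relative to the library total, scaled by TMM, a normalization that sets the average gene equal between libraries. A gene was called where edgeR's quasi-likelihood test gave a Benjamini-Hochberg adjusted p-value under 0.05 over all 13204 genes.

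Immediate early genes are transcribed within minutes of a growth factor, cytokine or stress signal, without new protein synthesis, by factors that already wait at their promoters. Many of their products, among them the AP-1 partners Fos and Jun, are themselves transcription factors, and the messengers of these genes are short-lived. Heat shock genes are switched on by heat shock factor 1 when unfolded proteins accumulate, and they encode chaperones. In liver both programmes follow injury, partial removal of the organ and handling of the tissue.

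Hspa1a and Hspa1b lie side by side on chromosome 17 (34969359 to 34972156 and 34956429 to 34959238, minus strand, GRCm38, the build called mm10), and their upstream regions are shown because the pair had the largest differences of the 10 genes between natural males and natural females. Capitals mark the inverted repeat GAANNTTC bound by heat shock factors and a CCAAT box, here read as ATTGG on the gene's strand. The Fos region is shown for contrast, with a cyclic AMP response element core TGACGT and the TATA box TATAAA in capitals. Each run is the 250 bases before the transcription start in RefSeq (GRCm38.p6), 5′ to 3′ on the gene's strand.
Hspa1a, chr17:34972157-34972406, minus strand: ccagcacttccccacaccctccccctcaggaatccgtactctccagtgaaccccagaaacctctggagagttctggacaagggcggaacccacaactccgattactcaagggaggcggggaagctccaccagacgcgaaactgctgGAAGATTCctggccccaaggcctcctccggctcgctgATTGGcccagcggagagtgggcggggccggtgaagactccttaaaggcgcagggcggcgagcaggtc
Hspa1b, chr17:34959239-34959488, minus strand: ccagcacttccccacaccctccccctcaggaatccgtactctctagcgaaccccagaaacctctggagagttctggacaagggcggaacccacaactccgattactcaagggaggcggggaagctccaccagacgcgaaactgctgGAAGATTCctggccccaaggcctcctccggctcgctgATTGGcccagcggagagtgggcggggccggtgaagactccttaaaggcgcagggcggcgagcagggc
Fos, chr12:85473640-85473889, plus strand: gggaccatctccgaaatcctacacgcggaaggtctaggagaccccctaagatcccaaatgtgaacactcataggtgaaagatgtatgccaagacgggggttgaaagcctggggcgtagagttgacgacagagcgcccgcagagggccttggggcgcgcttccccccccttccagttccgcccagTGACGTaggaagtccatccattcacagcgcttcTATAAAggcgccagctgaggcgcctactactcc

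The upstream regions of Hspa1a and Hspa1b differed at 3 of 250 bases, an identity of 98.8%. In both, GAANNTTC stood 104 to 97 bases before the start and the CCAAT box 67 to 63 bases before it. Of the 10 genes, 7 had a RefSeq window, which leaves out Egr1, Ier2 and Hspa8. Dnajb1 had 2 windows, and a gene was counted where any of its windows matched, while the shares of all are per window. GAANNTTC was found in the windows of Hspa1a, Hspa1b and Jun and in 6.69% of 32817 windows of all genes, on either strand since the motif reads the same on both. GAANNTTC followed by NNGAA, a run of 3 units, was in 0.466% of all windows and in 0 of the 7 genes. TGACGT, on either strand, was in the windows of Fos and Atf3 and in 6.46% of all windows. CCAAT was found for 5 of the 7 genes and in 33.8% of all windows, and TATAAA in the window of Fos and 12.4% of all. The CArG box, the core of the serum response element, was found for 0 of the 7 genes and in 1.47% of all windows. Bases further upstream were not searched and Egr1 had no window, so this does not show that these genes lack the element. A TATAAA match can lie inside a CArG box. A match is a string of letters, not a measured binding site.

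**Figure D1:**
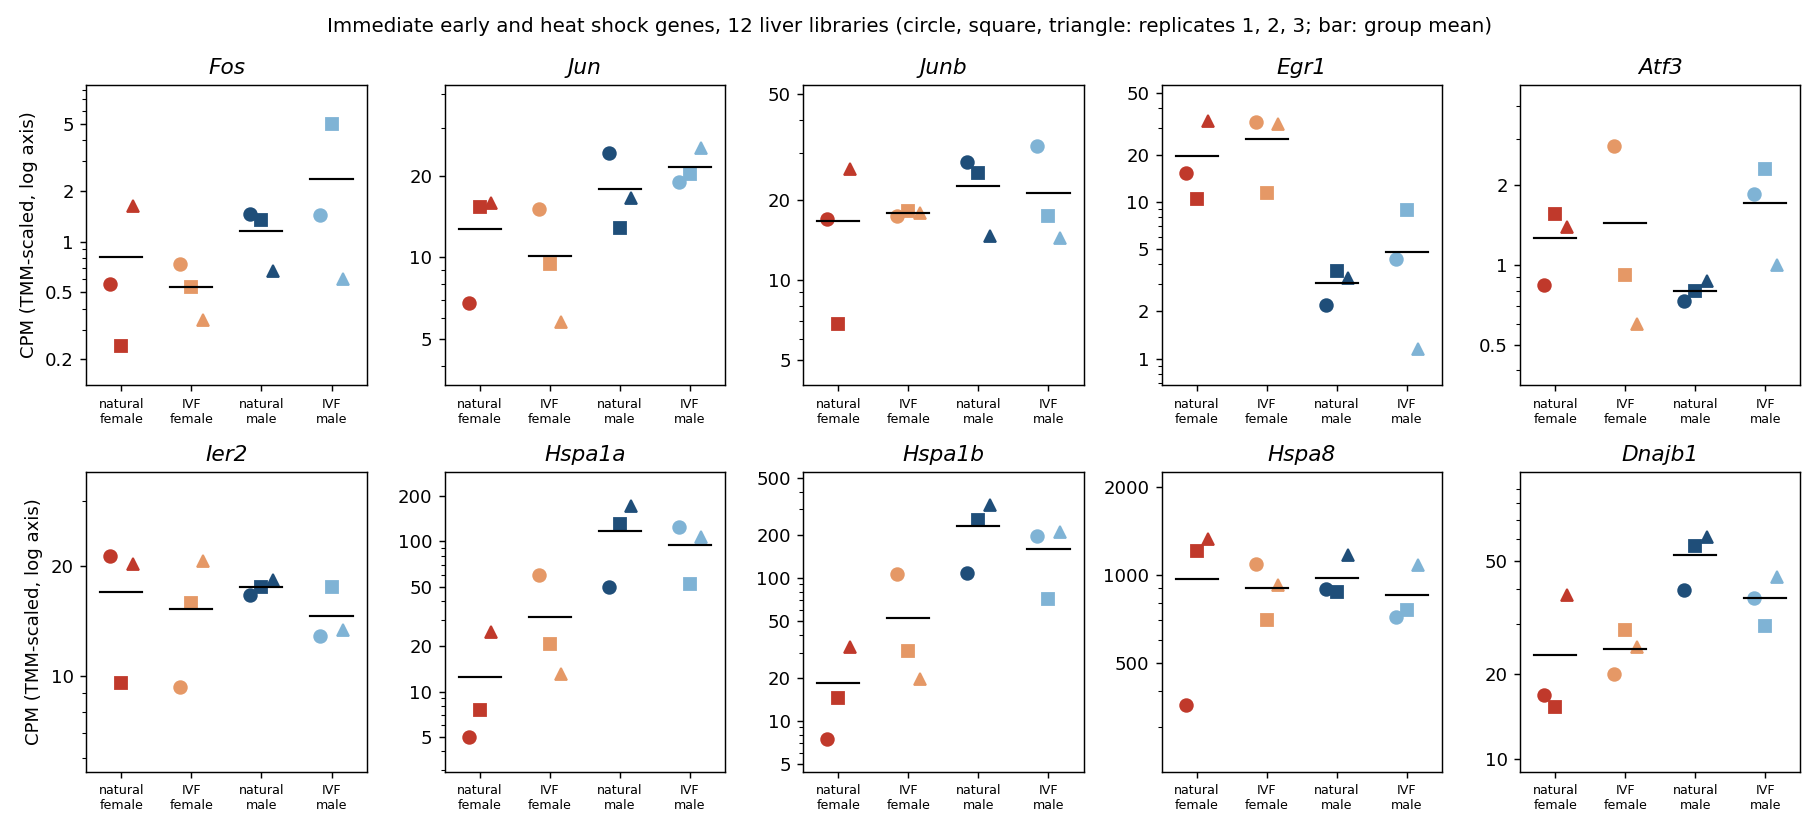
CPM (TMM-scaled, log axis) of the 10 genes in each of 12 liver libraries, by group, with circles, squares and triangles for replicates 1, 2 and 3 and a bar at the group mean. The 6 male libraries lie between 71.1 and 324 CPM for Hspa1b, above 5 of the 6 female libraries, and all 6 male libraries lie below all 6 female libraries for Egr1.

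Among the chaperones, Hspa1b had the widest range of levels over the 12 libraries. Natural females had 7.50, 14.5 and 32.8 CPM in replicates 1, 2 and 3, and IVF females had 107, 30.6 and 19.5 CPM. Natural males had 108, 254 and 324 CPM, and IVF males had 194, 71.1 and 208 CPM. The natural groups did not overlap, which held for 20% of all genes, and of the 6 females only IVF female replicate 1 lay above the lowest male, IVF male replicate 2.

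The mean level of Hspa1b was 18.3 ± 13.1 CPM (SD, n = 3) in natural females and 229 ± 110 CPM (SD, n = 3) in natural males. In a bulk sample, fewer cells of a type and less RNA per cell cannot be told apart. The difference was a log2 fold change of 3.64 ± 0.77 (SE), 12.5-fold, at adjusted p = 0.0355 (edgeR, quasi-likelihood test). It was the 1 gene of the 10 called in that comparison, beside 1.77% of all genes tested. The call was lost, with adjusted p-values from 0.0529 to 0.123 in edgeR, when any of 6 libraries was left out, namely IVF male replicate 1 or 3, natural female replicate 1 or 2 and natural male replicate 2 or 3, and at 0.0523 without the 2 smallest libraries. By edgeR 0 of the 10 were called between the sexes after IVF, beside 2.19% of all genes, and 5 had an unadjusted p-value under 0.05, beside 14.9%. DESeq2 called 1 of the 10, beside 5.47% of the genes it gave an adjusted p-value. Between IVF females, at 52.3 ± 47.5 CPM (SD, n = 3), and IVF males, at 158 ± 75.3 CPM (SD, n = 3), the log2 fold change was 1.61 ± 0.71 (SE) and edgeR gave an adjusted p = 0.313. Leaving out IVF female replicate 1 moved it to 2.62.

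Hspa1a, the neighbouring gene for an almost identical protein, followed Hspa1b. It had 4.97, 7.55 and 24.9 CPM in natural females and 59.8, 20.8 and 13.0 CPM in IVF females, replicates 1 to 3. Males had 49.5, 130 and 171 CPM after natural conception and 125, 51.7 and 106 CPM after IVF. The order of the 3 libraries was the same as for Hspa1b in every group but IVF males, where replicates 1 and 3 changed places. In natural animals the log2 fold change, male against female, was 3.22 ± 0.74 (SE) at adjusted p = 0.0551 in edgeR, and in IVF animals it was 1.61 ± 0.70 (SE) with 0.305. The first of these values passed the threshold in DESeq2 at adjusted p = 0.000131, in limma voom, with 0.0328, and in edgeR without natural female replicate 3, with 0.0275, or without IVF female replicate 1, with 0.0338.

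Reads from these neighbours could not be fully told apart. Of the 75-base stretches of the longest Hspa1a transcript in GENCODE M21, 52.7% were also present in Hspa1b, and 55.8% of those of Hspa1b were present in Hspa1a. For 50-base stretches the shares were 58.8% and 62.3%, and for 100-base stretches 47.1% and 49.9%. Hspa8 shared 0% of its stretches with either gene at these lengths. How the deposited counts treated reads that match both genes is not given in the sources used here. The counts of both genes were therefore also summed before the fit. The sum had a log2 fold change of 3.49 ± 0.76 (SE), 11.2-fold, between natural males and females at adjusted p = 0.0406 in edgeR, and the sum was 3.03-fold higher in IVF males than IVF females at 0.311.

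Hspa1b supplied the larger part of the pair's counts in all 12 libraries. Its share was 60.1%, 65.8% and 56.9% in natural females and 64.1%, 59.5% and 60.1% in IVF females. In natural males it was 68.6%, 66.2% and 65.5%, and in IVF males 60.8%, 57.9% and 66.2%. The exact 95% binomial interval ran from 54.5% to 65.6% in natural female replicate 1, with 311 counts of the pair, and from 64.6% to 66.3% in natural male replicate 3, with 12515 counts. These intervals cover counting error only. The share thus stayed between 56.9% and 68.6% while the summed level went from 12.5 to 495 CPM.

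**Figure D2:**
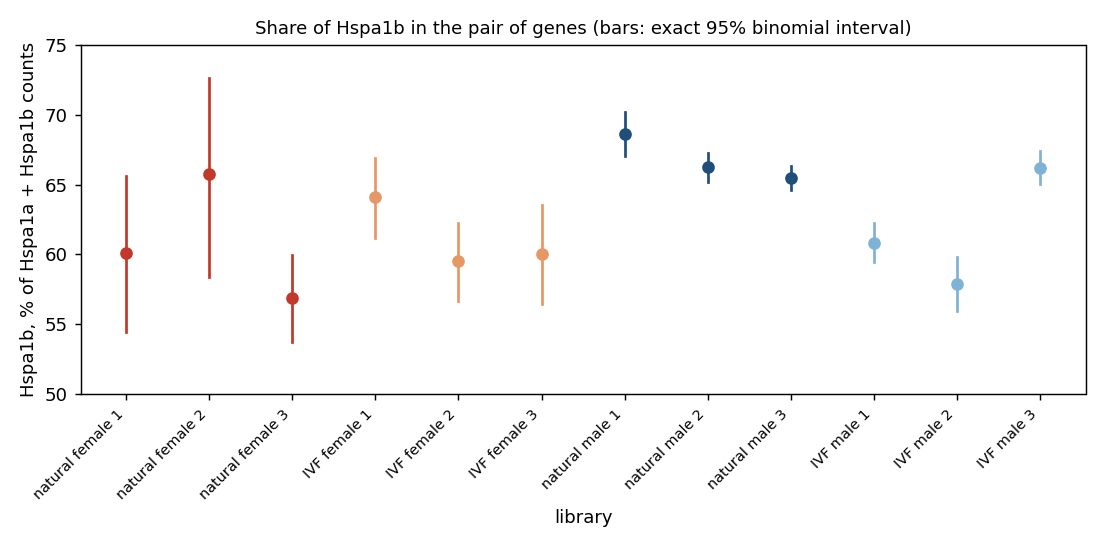
Hspa1b as a percentage of the summed Hspa1a and Hspa1b counts in each library, with exact 95% binomial intervals. All 12 values lie between 56.9% and 68.6%, and the intervals are widest in natural female replicates 1 and 2, which had the fewest counts of the pair.

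Dnajb1, on chromosome 8 (83608175 to 83612653), encodes the HSP40 cochaperone that hands unfolded proteins to HSP70. It had 16.8, 15.3 and 37.8 CPM in natural females, 20.04, 28.6 and 24.9 CPM in IVF females, 39.6, 56.7 and 60.9 CPM in natural males and 37.2, 29.6 and 44.0 CPM in IVF males. Males did not overlap with females of the same mode of conception, which held for 20% of all genes in natural and 21.8% in IVF animals. The log2 fold changes were 1.16 ± 0.33 (SE) in natural and 0.59 ± 0.33 (SE) after IVF, and edgeR gave adjusted p = 0.116 and 0.449. Hspa8, the constitutive HSC70 on chromosome 9 (40801276 to 40805202), had the highest levels of the 10 genes per length of transcript, with a mean of 215 CPM per kilobase of exon sequence against 40.8 for Hspa1b, the next in order. Its level went from 358 CPM in natural female replicate 1 to 1332 CPM in natural female replicate 3, and both ends of the range were thus in one group. Male against female it had log2 fold changes of 0.02 (95% interval -0.85 to 0.89) in natural and -0.09 (-0.96 to 0.79) in IVF animals.

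Among the immediate early genes, Egr1 showed the sex difference. The gene lies on chromosome 18 (34861207 to 34864956, GRCm38). Natural females had 15.5, 10.5 and 33.1 CPM and IVF females 32.8, 11.4 and 31.4 CPM. Natural males had 2.19, 3.64 and 3.28 CPM and IVF males 4.33, 8.95 and 1.15 CPM, from 23 to 182 counts per male library. No male library reached the lowest female library.

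In natural animals Egr1 had a mean of 19.7 ± 11.8 CPM (SD, n = 3) in females and 3.04 ± 0.756 CPM (SD, n = 3) in males. The log2 fold change was -2.70 ± 0.67 (SE) at adjusted p = 0.0719 (edgeR). In IVF animals the means were 25.2 ± 12.0 CPM (SD, n = 3) and 4.81 ± 3.92 CPM (SD, n = 3), the log2 fold change was -2.38 ± 0.65 (SE) and the adjusted p was 0.0976. Neither value was a call in edgeR, the first became one without IVF male replicate 3, with 0.0344, and DESeq2 gave 0.00104 and 0.00478 with the same adjustment. Egr1 and Hspa1b thus had differences of opposite sign in the same animals.

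Averaging the male-female difference over both modes of conception used all 12 libraries, and this comparison was added after the data were seen. EdgeR's test called 4 of the 10 genes, beside 7.2% of all genes tested, 3 of them higher in males, beside 3.57%, and 1 lower, beside 3.63%. Egr1 fell in males by 2.54 ± 0.47 (SE) on the log2 scale at adjusted p = 0.00759 in edgeR, and it was lower in 6 of 6 males than in every female. Such a lack of overlap between 6 and 6 libraries was met by 5.75% of all genes. Hspa1a rose in males by 2.42 ± 0.51 (SE) with 0.0163, and Hspa1b by 2.62 ± 0.52 (SE) with 0.0118. Dnajb1 rose by 0.87 ± 0.23 (SE), 1.83-fold, at adjusted p = 0.0438 in edgeR. The calls of Egr1, Hspa1a and Hspa1b held in all 12 fits that left out 1 library, with adjusted p-values up to 0.0489 in edgeR. The call of Dnajb1 was lost in 10 of those 12 fits, all but those that left out replicate 3 of the natural females or replicate 1 of the natural males, and under 4 other alternatives, with adjusted p-values up to 0.122.

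The other immediate early genes had no call between the sexes. Fos had very few reads, from 2 counts (exact 95% Poisson interval 0.242 to 7.22) in natural female replicate 2 to 102 counts in IVF male replicate 2. Its levels were 0.562, 0.240 and 1.62 CPM in natural females, 0.742, 0.540 and 0.342 CPM in IVF females, 1.46, 1.35 and 0.672 CPM in natural males and 1.44, 5.02 and 0.601 CPM in IVF males. The groups overlapped in every comparison. Averaged over both modes, its log2 fold change between males and females was 1.33 ± 0.55 (SE) at adjusted p = 0.171 in edgeR, and without IVF male replicate 2 it was 0.71.

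Jun, the AP-1 partner of Fos, on chromosome 4 (95049036 to 95052222), had 6.82, 15.3 and 15.9 CPM in natural females and 15.1, 9.44 and 5.77 CPM in IVF females. Males had 24.2, 12.8 and 16.6 CPM after natural conception and 18.9, 20.3 and 25.4 CPM after IVF. The IVF groups of both sexes did not overlap, which held for 21.8% of all genes, with a log2 fold change of 1.12 ± 0.39 (SE) at adjusted p = 0.200 (edgeR). Over both modes it was 0.81 ± 0.28 (SE) at adjusted p = 0.101, which became 0.0468 without the 2 smallest libraries and 0.0297 with a term for them in the edgeR model.

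Junb, which can replace Jun in AP-1, ranged from 6.83 to 31.9 CPM, and the lowest library was the small natural female replicate 2. Ier2, a short-lived nuclear protein, ranged from 9.35 to 21.3 CPM. Its lowest values, 9.35 and 9.59 CPM, were those of the 2 smallest libraries, and the other 10 lay between 12.9 and 21.3 CPM. Atf3, a stress-induced repressor of the ATF family, had 13 to 47 counts per library and 0.598 to 2.82 CPM, with the highest level in IVF female replicate 1. Averaged over both modes, the log2 fold changes between males and females were 0.34 ± 0.30 (SE) for Junb, -0.02 ± 0.22 (SE) for Ier2 and -0.10 ± 0.38 (SE) for Atf3. The sign for Atf3 turned, to between 0.04 and 0.35, under limma voom, voom with quality weights, without IVF female replicate 1 or IVF male replicate 3, without the 2 smallest libraries and with a term for them. That for Ier2 turned, to at most 0.12, without IVF female replicate 3, IVF male replicate 1 or 3, or natural female replicate 1 or 3.

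**Figure D3:**
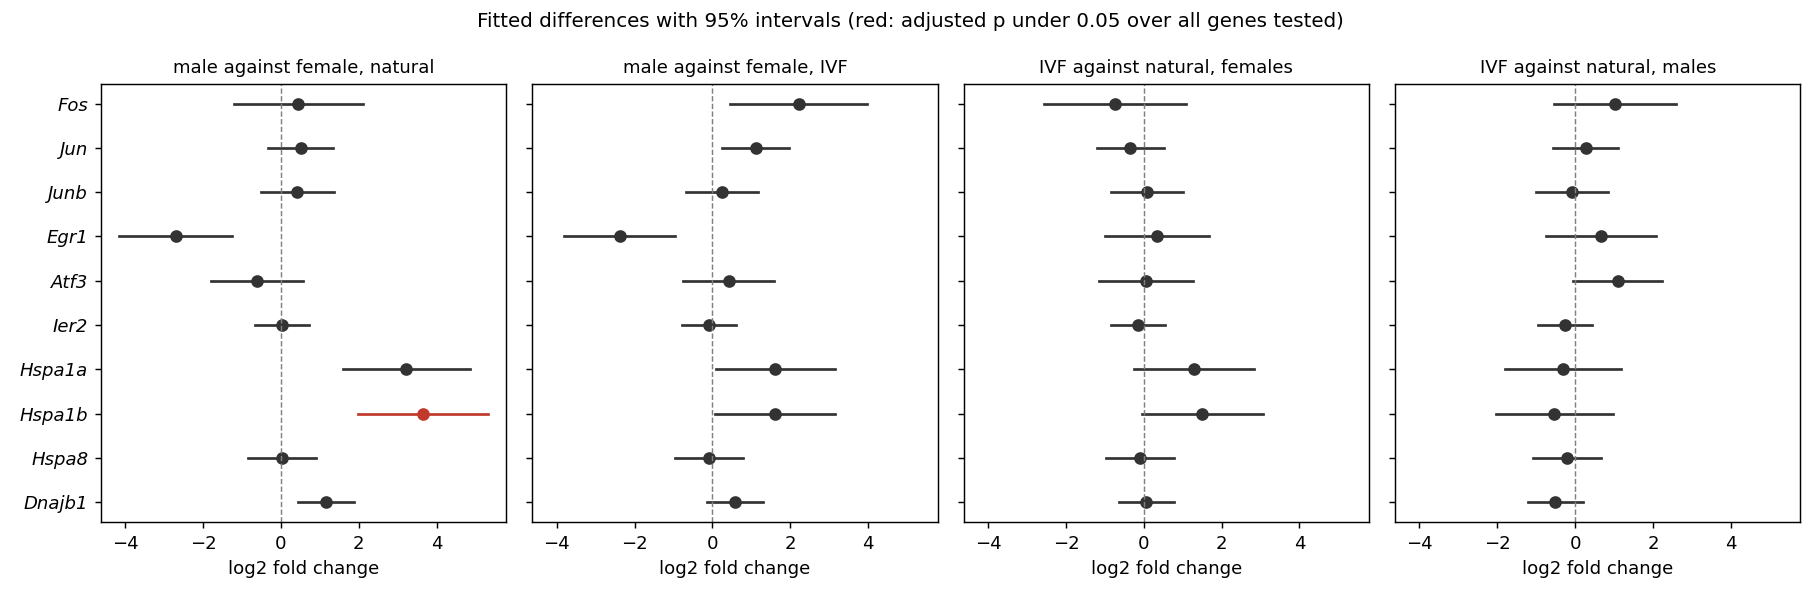
Fitted log2 fold changes with 95% intervals for the 10 genes in 4 comparisons, male against female on the left and IVF against natural on the right, with the value called at an adjusted p-value under 0.05 in red. Intervals for Hspa1a, Hspa1b and Egr1 exclude 0 in both comparisons of the sexes, and every interval for IVF against natural includes 0.

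The second question was whether the mode of conception changed these genes. By edgeR's test 0 of 10 were called in females, beside 0% of all genes tested, and 0 of 10 in males, beside 0.00757%. None had an unadjusted p-value under 0.05 in either sex, beside 3.7% and 2.69% of all genes, and DESeq2, limma voom and voom with quality weights also called 0 of 10. Both comparisons share no libraries.

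In females the largest differences were those of Hspa1b and Hspa1a, with log2 fold changes of 1.502 ± 0.71 (SE) and 1.30 ± 0.70 (SE), higher after IVF. The 95% intervals ran from -0.05 to 3.06 and from -0.24 to 2.84. IVF female replicate 1 had 107 CPM of Hspa1b against 30.6 and 19.5 CPM in the other IVF females, and without it the values were 0.47 and 0.45, while without natural female replicate 3 they were 2.27 and 2.33. Of the 10 genes, 7 were highest in IVF female replicate 1 among IVF females, Fos on 5 counts, and 8 of 10 were highest in replicate 3 among natural females. The shares of all genes highest in these libraries were not computed.

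In males Atf3 was the 1 gene of the 10 whose groups did not overlap, beside 8.91% of all genes. IVF males had 1.85, 2.31 and 1.001 CPM, from 20 to 47 counts, and natural males 0.731, 0.799 and 0.870 CPM, from 16 to 22 counts. IVF males were higher by 1.10 ± 0.52 (SE) on the log2 scale, 2.14-fold, with an unadjusted p-value of 0.0583 and an adjusted p of 1 in edgeR. All 4 chaperone genes had lower fitted means after IVF in males, from -0.20 ± 0.40 (SE) on the log2 scale for Hspa8 to -0.54 ± 0.69 (SE) for Hspa1b, and their intervals included 0. The difference between both IVF effects, males minus females, was -2.04 ± 0.99 (SE) for Hspa1b and -1.61 ± 0.98 (SE) for Hspa1a, with adjusted p-values of 1 in edgeR, and 1.77 ± 1.10 (SE) for Fos. Without IVF female replicate 1 the values were -1.01 for Hspa1b and -0.76 for Hspa1a, without natural female replicate 3 Hspa1a had -2.64, and Fos had 0.53 without IVF male replicate 2 and 0.82 without natural female replicate 3. By edgeR 0 of 10 were called for this difference, beside 0% of all genes, and 0 of 10 for the average IVF effect, beside 0.00757%. None of the 10 had an unadjusted p-value under 0.05 in these comparisons in edgeR, beside 3.87% and 2.69% of all genes, and DESeq2 and limma voom called 0.

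With the 4 groups pooled, animals of one group differed more in these genes than in most. The standard deviation of log2 CPM among the libraries of a group, pooled over the 4 groups, had a median of 0.38 over the 13204 genes. It was 1.02 for Hspa1b, 1.003 for Hspa1a, 0.99 for Fos and 0.96 for Egr1, between the 95.3 and 96.3 percentile of all genes. For Atf3, Junb, Hspa8 and Jun it was 0.65, 0.63, 0.59 and 0.55, and for Ier2 and Dnajb1 0.45 and 0.44. All 10 were above the median. For some this rested on single groups. Hspa8 had 1.06 in natural females and 0.23 to 0.32 in the other groups, and Dnajb1 had 0.71 and 0.26 to 0.33. Ier2 had 0.64 in natural and 0.58 in IVF females, against 0.06 in natural and 0.24 in IVF males. For a gene with few counts such as Fos this spread includes counting error. The biological coefficient of variation that edgeR fits apart from counting error was also above the trend for genes of its level, 0.608 against 0.391. For Egr1 it was 0.528 against 0.285 and for Hspa1b 0.575 against 0.283. Ier2, Atf3 and Dnajb1 lay close to the trend, with 0.281 against 0.280, 0.404 against 0.392 and 0.294 against 0.276. Without the 2 smallest libraries the standard deviation of Ier2 was 0.18 and that of Atf3 0.42.

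**Figure D4:**
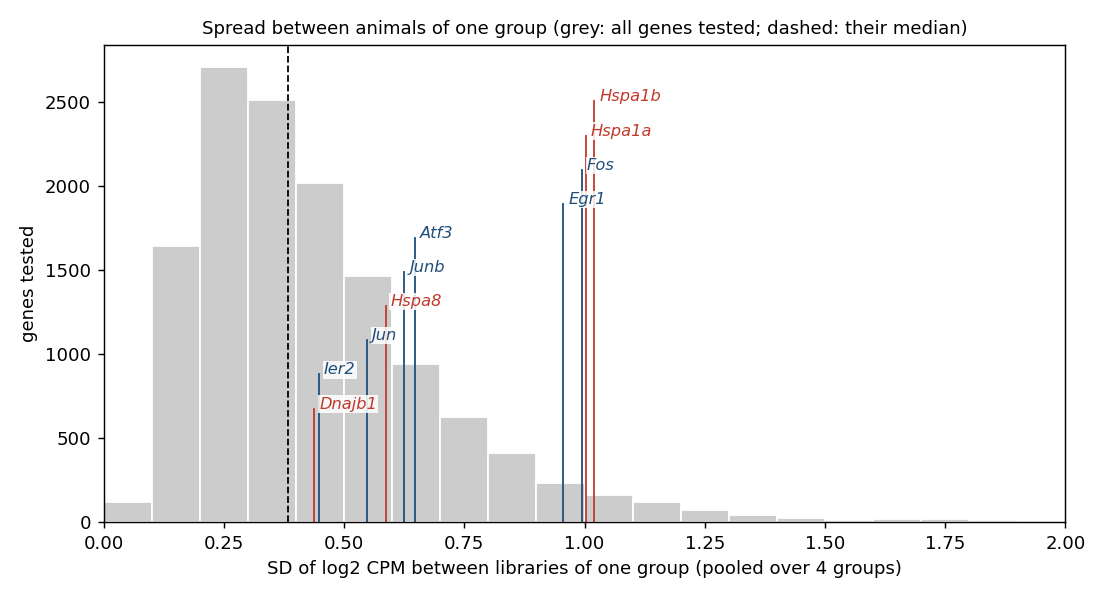
Histogram of the pooled standard deviation of log2 CPM among the libraries of a group for all 13204 genes, with the 10 genes marked (blue for immediate early, red for heat shock genes) and the median of 0.38 dashed. Hspa1b, Hspa1a, Fos and Egr1 lie near 1, and Dnajb1 and Ier2 lie closest to the median.

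Fos and Egr1 shared their highest library in 3 of the 4 groups: replicate 3 of natural females, replicate 1 of IVF females and replicate 2 of IVF males. In IVF males Fos went from 0.601 to 5.02 CPM and Egr1 from 1.15 to 8.95 CPM, with the same order of the 3 animals. In females the chaperones were highest in the same libraries. All 4 were so in natural female replicate 3, with 4 of the 6 immediate early genes. In IVF female replicate 1 it was 3 of 4, again with 4 of 6, Fos and Egr1 among them. In males fewer of the immediate early genes were highest together with the chaperones. In IVF males replicate 2, the highest for Fos, Egr1, Atf3 and Ier2, was the lowest for Hspa1a, Hspa1b and Dnajb1. In natural males replicate 3 was the highest for all 4 chaperone genes and also for Atf3 and Ier2. It was the lowest for Fos and Junb. The share of all genes highest in each library was not computed, so these counts are not read as results about the listed genes. Hspa1a and Hspa1b, whose reads could not be fully told apart, are not separate observations. The mean of the 4 chaperone genes, on the log2 scale and relative to each gene's mean, ran from -2.06 in natural female replicate 1 to 1.45 in natural male replicate 3, and that of the 6 immediate early genes from -0.53 in IVF male replicate 3 to 0.68 in natural female replicate 3.

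**Figure D5:**
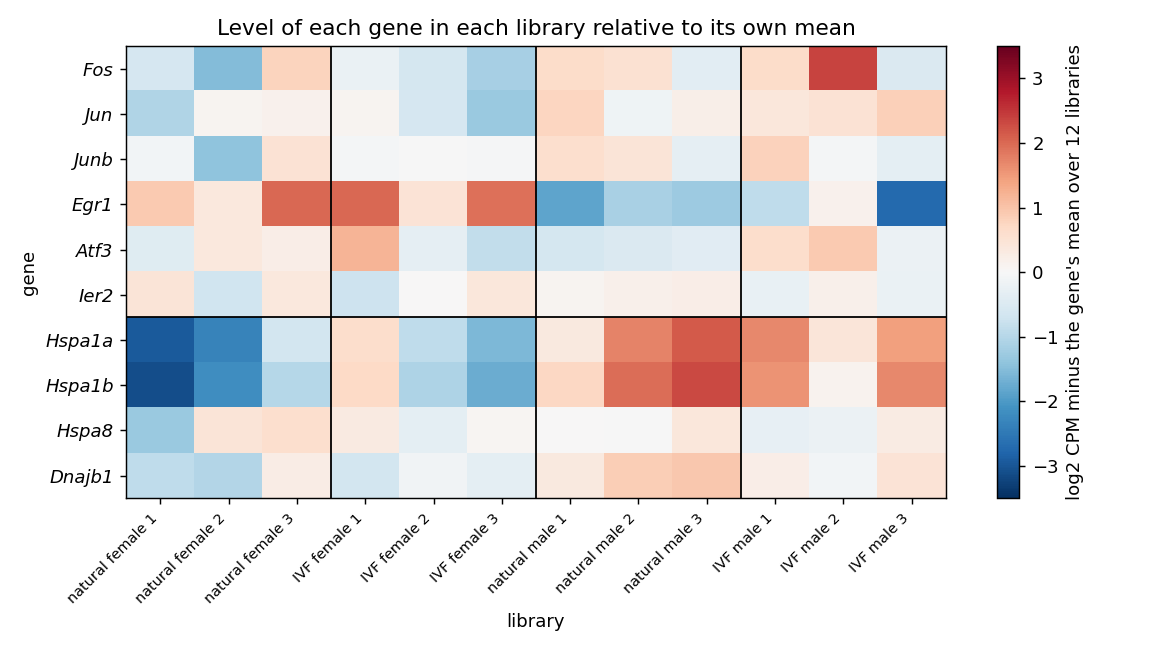
Log2 CPM of each gene in each library less the mean of that gene in all libraries, from blue (lower) to red (higher), with immediate early genes above and heat shock genes below the horizontal line. Hspa1a and Hspa1b are blue in 5 of 6 female libraries and red or near 0 in the male libraries, Egr1 is red in the female libraries, and Fos is highest in IVF male replicate 2.

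The genes of likest pattern were taken as those with the highest Pearson's r with these means over 12 libraries, among 9087 genes of at least 5 CPM. The highest of so many values are high by selection. Whether they exceed what chance gives was not tested. For the immediate early genes they were Cnot7 (r = 0.81), Ccng1 (0.79), Stub1 (0.76), Mafk (0.75) and Zfp36 (0.75). Zfp36 encodes a decay factor for short-lived messengers and is an immediate early gene itself. For the chaperones they were Fbxo33 (r = 0.94), Nfic (0.93), Mctp2 (0.92), Tmem41b (0.92) and the clock gene Per2 (0.92). Per2 had 13.0 ± 6.75 CPM (SD, n = 3) in natural females, 30.1 ± 11.6 in IVF females, 44.3 ± 11.1 in natural males and 42.2 ± 15.5 in IVF males. These are descriptions, and for the chaperones the points share the sex difference. The mean of the immediate early genes ran from -0.46 to 0.68 in females and from -0.53 to 0.67 in males.

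Beyond the 10 genes, 33 of 42 other immediate early genes and all 37 other heat shock genes in a chosen list passed the filter. Between IVF and natural animals edgeR called 0 of either list, in females, in males, for the difference between the sexes and for the average. At an unadjusted p-value under 0.05 there were 0 higher and 1 lower of 33 in females and 1 higher and 0 lower in males, and for the heat shock list 0 and 1 of 37 in females and 1 and 0 in males. For the difference between the sexes there were 2 higher and 0 lower of 33 and 0 of 37, and for the average 0 of 33 and 0 higher and 1 lower of 37. DESeq2 and limma voom also called 0 of both lists. The median log2 fold change was -0.15 in females and -0.08 in males for the immediate early list, and 0.09 and -0.01 for the heat shock list, against -0.01 and 0.01 for all genes.

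The genes of smallest unadjusted p-value in females were Cyr61, Ier3 and Ppp1r15a for the first list, with log2 fold changes of -0.78 ± 0.35, -1.06 ± 0.52 and -0.67 ± 0.34 (SE). Without natural female replicate 3, Ier3 had -0.14 and Ppp1r15a -0.16. Among those of the second were Hspb1, a small heat shock protein, with -1.69 ± 0.60 (SE), and Hsf1, the heat shock factor itself, with -0.41 ± 0.25. Hspb1 had -0.90 without natural female replicate 3, and Hsf1 ranged from -0.63 without natural female replicate 2 to -0.23 without IVF female replicate 1. In males they were Plk2, a polo-like kinase, with 0.77 ± 0.20 (SE), Cyr61 with 0.63 ± 0.35, or 0.32 without IVF male replicate 2, and Fosl2 with -0.49 ± 0.35, and for the heat shock list Hspa14 with 0.37 ± 0.16, Hspb8 with -0.41 ± 0.25 and Hspb1 with -0.76 ± 0.56. Their adjusted p-values in edgeR were 1. For the difference between the sexes Plk2 had 1.03 ± 0.29 (SE) and Cyr61 1.41 ± 0.49, with adjusted p-values of 1 in edgeR.

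Between the sexes, averaged over both modes, edgeR called 4 of the 33 immediate early genes, 3 higher and 1 lower in males, beside 7.2% of all genes. Trib1, a pseudokinase, rose by 0.66 ± 0.16 (SE) on the log2 scale at adjusted p = 0.0299. Csrnp1, a nuclear protein, rose by 1.04 ± 0.25 (SE) with 0.0316, and Plk3, a stress-responsive kinase, by 1.33 ± 0.33 (SE) with 0.0324. Klf6, a zinc finger factor, fell by 1.02 ± 0.25 (SE) with 0.0334. With 1 library left out the number called ranged from 0, without IVF female replicate 2, IVF male replicate 2 or natural male replicate 1 or 2, to 5. Of the 37 heat shock genes, 1 was called, beside the same 7.2% of all genes. With 1 library left out 0 to 2 were called, 0 without IVF female replicate 2 or 3, IVF male replicate 1 or 3, or natural male replicate 2. The median log2 fold change of the 37 was 0.04, with 19 higher and 18 lower in males.

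Within a single mode of conception edgeR called 0 of 33 and 0 of 37 between the sexes, beside 1.77% of all genes after natural conception and 2.19% after IVF. In natural animals 4 higher and 4 lower of 33, and 4 higher and 0 lower of 37, had an unadjusted p-value under 0.05, and in IVF animals 5 and 1 of 33 and 1 and 1 of 37, beside 14.9% of all genes in either comparison. DESeq2 called 3 of 33 and 1 of 37 in natural animals, beside 5.14% of all genes, and 0 of either list in IVF animals, beside 5.47%. Among those of smallest p-value in natural animals were Trib1, Plk2 and Plk3, with log2 fold changes of 0.83 ± 0.23, -0.75 ± 0.20 and 1.61 ± 0.46 (SE), and Dnajb4 and Hspb8, with 0.99 ± 0.32 and 0.72 ± 0.25. In IVF animals these were Jund, Csrnp1 and Klf6, with 0.71 ± 0.25, 0.96 ± 0.36 and -0.94 ± 0.36, and Cryab and Ahsa2, with -0.72 ± 0.33 and 0.39 ± 0.21. Without IVF male replicate 3 Ahsa2 had 0.15.

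Of 17 genes that act upstream of these programmes (receptors, MAP kinases, their nuclear targets and heat shock factors, with Hsf1 also in the heat shock list), 1 was called between the sexes over both modes by edgeR, beside 7.2% of all genes. It was Egfr, the epidermal growth factor receptor, named here after its value was seen. It had 171 ± 72.0 CPM (SD, n = 3) in natural females, 189 ± 123 in IVF females, 595 ± 257 in natural males and 533 ± 294 in IVF males. The log2 fold change was 1.65 ± 0.42 (SE) at adjusted p = 0.037 in edgeR. The leave-one-out values of Egfr were not computed.

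Markers of other cell types were summed in each library. The 9 hepatocyte markers found summed to 86570 to 101767 CPM in IVF males and 104139 to 123668 CPM in the other groups. Their part in the differences of IVF males was not tested. Kupffer cell markers, 10 of 10 present, summed to 403 to 613 CPM in the females of both groups, 384 to 422 CPM in natural males and 206 to 312 CPM in IVF males. Endothelial markers, 10 of 10 present, summed to 287 to 350 CPM in females and 222 to 280 CPM in males, and lymphocyte markers, 10 of 10 present, to 15.1 to 21.9 CPM in females and 6.39 to 12.0 CPM in males. Both lists were thus lower in all males than in all females, as was Egr1, and their part in the difference of Egr1 was not tested. Neutrophil markers, 9 present, summed to 2.16 to 9.61 CPM over all libraries, stellate cell markers, 10 present, to 263 to 498 CPM, and cholangiocyte markers, 8 present, to 21.9 to 58.3 CPM. Of 8 erythroid markers, Hbb-bs, Hbb-bt and Hba-a2 were at 0 in all libraries, and of 10 markers of other organs Prss2, Ins2 and Umod were. The erythroid list summed to 7.15 to 74.9 CPM in females and 27.7 to 179 CPM in males, and the list for other organs to 9.23 to 28.0 CPM in females and 24.2 to 41.7 CPM in males. The part of both lists in the sex differences was not tested. Kupffer cell markers were lowest in IVF males, the group in which Atf3 lay above natural males, and their part in that difference was not tested. A list of 15 acute phase genes summed to 82384 CPM in natural male replicate 2 and 53547 CPM in natural male replicate 3, the 2 highest libraries for Hspa1b, and to 20759 to 46086 CPM in the other 10, with the third highest in IVF female replicate 1. A list of 7 glucocorticoid-induced genes summed to 681 CPM in natural male replicate 1 and to 157 to 365 CPM elsewhere. The part of the acute phase genes in the levels of Hspa1a and Hspa1b was not tested.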

How the data were processed

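Poly-A RNA from 12 livers was sequenced, and the values are whole-number counts per gene as the authors deposited them. Per the submitters' processing notes the tools were Trimmomatic 0.32, STAR 2.3.0e and featureCounts 1.5.0, with the build mm10. Which annotation was counted, whether strand was used and what was done with reads that match several genes are not given in the sources used here, which bears on Hspa1a and Hspa1b and on genes that overlap an antisense gene. Replicate numbers follow the order of the samples and pair nothing.

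Counts were fitted with edgeR 4.0.16 (R 4.3.3), using TMM factors, a filter on low counts by group and quasi-likelihood tests on 12 libraries with a mean for each of 4 groups. The 13204 genes tested entered the Benjamini-Hochberg adjustment, with calls at an adjusted p-value under 0.05. P-values weigh each difference against the spread between these libraries, which are taken as independent animals. Log2 CPM for spreads and likeness used a prior count of 2. The fit was also run on simulated data with changes set in natural males alone, and the outcome is not given here. Alternatives were DESeq2 1.42.0, limma 3.58.1 voom with and without quality weights, other size factors and filters, fits without single libraries, without the 2 smallest libraries or without the ribosomal gene Rn45s, and Hspa1a and Hspa1b summed.

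The 10 genes and all gene lists were chosen with earlier results of these data known. All 10 are named. From the lists of other immediate early and heat shock genes, called genes are named or, without a call, the 3 of smallest unadjusted p-value. The values of 1 gene that this rule names are not reported here. The average over both modes of conception was added after seeing the data. Exact 95% intervals for counts and shares cover counting error only. Motifs were searched in the 250 bases before each start.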

Additional observations from a re-analysis of the deposited data

How the results depend on the processing

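The number of the 10 genes called was 0 for IVF in females, in males, for their difference and on average under all alternatives, and the same held for both other lists. Between natural males and females the 1 call became 2 with library sizes alone, without the filter, under limma voom, in a fit of the 6 libraries compared and with a term for the 2 smallest libraries, 4 under DESeq2 and voom with quality weights, 3 at an adjusted p-value under 0.1 and 0 without the 2 smallest libraries. It ranged from 0 to 3 when 1 library was left out. Between IVF males and females the 0 calls became 1 under DESeq2 and at 0.1 and 3 under voom with quality weights. Of the other immediate early genes, the 0 calls between natural males and females became 1 with library sizes alone, 3 under DESeq2 and 2 under voom with quality weights and at 0.1, with a range of 0 to 1 over the leave-outs. In IVF animals they became 1 under voom with quality weights, and over both modes the 4 became 7 at 0.1 and 0 to 5 over the leave-outs. Of the other heat shock genes, 1 was called between natural males and females under DESeq2, voom with quality weights, a term for the 2 smallest libraries and at 0.1, and 1 in IVF animals with that term. Over both modes the 1 call became 2 with library sizes alone, 3 under DESeq2 and voom with quality weights, 4 without the 2 smallest libraries, with a term for them and at 0.1, and 0 to 2 over the leave-outs. The cause of these changes was not tested. DESeq2 called 5.14% of the genes it gave an adjusted p-value between natural males and females, and 5.47% in IVF animals. EdgeR called 1.77% and 2.19% of all genes. Shares of all genes under the other alternatives are not given here. The changes in these counts are thus not read as results about the listed genes. None of the values whose sign turned was called. With library sizes alone in place of TMM, the log2 fold change turned for IVF in females Junb -0.025, Atf3 -0.030, Dnajb1 -0.033, for IVF in males Junb 0.076, for the difference of both IVF effects Junb 0.10, Ier2 0.10, Hspa8 0.11, for the IVF average Junb 0.026, for sex in natural animals Ier2 -0.30, Hspa8 -0.31. Under voom with quality weights, the log2 fold change turned for IVF in females Junb -0.058, Egr1 -0.18, Atf3 -0.39, Hspa8 0.13, for IVF in males Junb 0.062, for the difference of both IVF effects Junb 0.12, for the IVF average Junb 0.0019, for sex in natural animals Ier2 -0.12, for sex over both modes Atf3 0.34, Hspa8 0.21. Without the 2 smallest libraries, the log2 fold change turned for IVF in females Junb -0.24, Egr1 -0.18, Atf3 -0.53, Dnajb1 -0.017, for the difference of both IVF effects Junb 0.15, for the IVF average Fos -0.11, Hspa1a -0.058, Hspa1b -0.11, for sex in natural animals Ier2 -0.26, for sex in IVF animals Hspa8 0.034, for sex over both modes Atf3 0.33, Hspa8 0.11. Under limma voom, the log2 fold change turned for IVF in females Atf3 -0.26, Hspa8 0.084, for the difference of both IVF effects Egr1 -0.012, for the IVF average Junb 0.038, for sex over both modes Atf3 0.11, Hspa8 0.045. With a term for the 2 smallest libraries, the log2 fold change turned for IVF in females Atf3 -0.10, for the IVF average Junb 0.056, for sex in natural animals Ier2 -0.22, for sex in IVF animals Junb -0.0086, Hspa8 0.082, for sex over both modes Atf3 0.35, Hspa8 0.14. Under DESeq2, the log2 fold change turned for the IVF average Junb 0.0021. Fitting only the 6 libraries compared, the log2 fold change turned for sex in natural animals Hspa8 -0.0052. Leaving out 1 library in turn turned the sign of these values, given as ranges. For IVF in females the ranges were Fos -1.08 to 0.21, Junb -0.27 to 0.58, Atf3 -0.68 to 0.48, Ier2 -0.43 to 0.10, Hspa8 -0.49 to 0.23, Dnajb1 -0.15 to 0.64. For IVF in males they were Fos -0.20 to 1.49, Junb -0.50 to 0.13, Egr1 -0.18 to 1.13, Hspa1a -0.68 to 0.070. For the difference of both IVF effects they were Junb -0.67 to 0.18, Egr1 -0.52 to 0.79, Ier2 -0.37 to 0.16, Hspa8 -0.43 to 0.28. For the IVF average they were Fos -0.47 to 0.62, Jun -0.22 to 0.11, Junb -0.21 to 0.24, Hspa1b -0.037 to 0.86, Hspa8 -0.35 to 0.012, Dnajb1 -0.33 to 0.064. Between the sexes in natural animals they were Ier2 -0.24 to 0.23, Hspa8 -0.37 to 0.33, in IVF animals Junb -0.16 to 0.47, Atf3 -0.0044 to 1.14, Ier2 -0.35 to 0.20, Hspa8 -0.29 to 0.034 and over both modes Atf3 -0.31 to 0.26, Ier2 -0.16 to 0.12, Hspa8 -0.23 to 0.11. The pooled standard deviation of log2 CPM moved for Atf3 to 0.42 and for Ier2 to 0.18 without the 2 smallest libraries. No paired analysis was possible because the titles give animal numbers that are not shared as replicate numbers between groups. Depth limits Fos, with 2 to 102 counts, and Atf3, with 13 to 47.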
